A study of Caenorhabditis elegans with 2 samples.

Results

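The genes examined here form the vulval EGF, Ras and MAPK pathway of the nematode Caenorhabditis elegans, and the data are chromatin immunoprecipitation and sequencing (ChIP-seq) of DPL-1, the worm's DP protein. The members were 10 genes chosen by name, of 19973 protein-coding genes on the nuclear chromosomes, and all 10 were matched by symbol in the Ensembl annotation of WBcel235. They are lin-3, let-23, sem-5, let-60, lin-45, mek-2, mpk-1, lin-1, lin-31 and lin-39. The series has 1 group of 2 biological replicates, both of mixed-sex L1 larvae of strain YL448, so no condition was compared with another. The strain carries the mutation unc-119(ed3) on chromosome III and the insertion vrIs83, which holds pGES-1, DPL-1 with GFP and FLAG tags, the DPL-1 3'UTR and a rescuing unc-119 (+). The ges-1 promoter is active in the intestine, whole larvae were used, and the antibody label names dpl-1. Whether peaks came from native DPL-1, from the intestinal fusion or from both, and whether a weak peak was weak in all cells or present in few, cannot be told apart.

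In this pathway an EGF-like ligand from the gonad activates an EGF receptor on the vulval precursor cells, and an adaptor, Ras, Raf, a MAPK kinase and a MAP kinase carry the signal to transcription factors in the nucleus. Precursor cells that receive it make vulval tissue, and the others join the epidermis. DPL-1 pairs with E2F factors in the DREAM complex and belongs to the class B synMuv genes. Loss of a class B and a class A synMuv gene together gives extra vulval tissue, and the synMuv genes are known to hold down expression of lin-3. The question here is therefore where DPL-1 peaks lie at these genes in L1 larvae, the only stage sampled.

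A peak was assigned to a gene when its summit lay in the gene body or within 2 kb upstream, and it was marked as a promoter peak when the summit fell in a window reaching 500 bp before and 200 bp past an annotated protein-coding transcript start. Peaks came from the authors' list passing the irreproducible discovery rate (IDR) threshold on build ce11, which held 3726 peaks. They also came from the authors' pooled list of 30000 peaks, which has no such threshold. The authors label the pooled list as peaks and background, so an entry of it is not by itself evidence of binding. The IDR peaks were the 3726 with the highest signal of the pooled list, so a rank above 3726 means that a peak missed the IDR list. Signal is the authors' value per peak, on a scale that the files do not state. It ran from 39.5 to 5289 in the IDR list (median 94.0) and down to 9.07 in the pooled list (median 13.1). The lists give no read totals, so sequencing depth at a peak is unknown.

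DPL-1 peaks of the IDR list were assigned to 4 of the 10 genes, let-60, lin-45, mpk-1 and lin-1, with 1 peak each. All 4 peaks had signals of 138 or lower. The share of all protein-coding genes called by the same rule was 22.7%. It was 28.4% of the 8754 genes whose search window lay between the shortest and the longest of the members (4271 to 26426 bp). It was 33.3% of the 1391 genes with a window within 20% of the members' median length, a range that held 5 of the members, 1 of them called. Among autosomal genes the share was 24.3%, with 4 of 9 autosomal members called. Member genes are long, with a median search window of 10019 bp against 4027 bp over all protein-coding genes. Per length, the members had 0.375 IDR summits per 10 kb of search window, against 0.503 over the windows of all genes. In promoter windows an IDR summit lay at 1 of 10 members, lin-45, against 14.3% of all protein-coding genes. The other 3 members were called by a summit outside every promoter window of their own, which was the case for 8.44% of all genes. The promoter shares and the share outside promoters were not set against genes of like length, and with 10 genes none of these counts is read here as a property of the pathway.

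Sequences at the 4 IDR peaks are shown because the calls rest on these peaks, with the summit itself at let-60, mpk-1 and lin-1 and, at lin-45, the stretch beside the summit that holds a searched string. Each is 30 bases of the plus strand of the RefSeq WBcel235 (ce11) genome, 5′ to 3′. Capitals mark the summit base at let-60, mpk-1 and lin-1, and at lin-45 they mark an E2F-type string.
let-60, IV:11692527-11692556: acacgaacgaccgcGacgcgacagccgcta
lin-45, IV:6747888-6747917: tctcttccattTTCGCGCagaagattttaa
mpk-1, III:4223788-4223817: gggagtatcaagagAcgcagacatttagat
lin-1, IV:2281556-2281585: taccgccatatcaaCgcttgttgtcttgtg

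The 50 bp on either side of each summit were read on both strands for 3 kinds of string. The E2F-type strings were TTCCCGC or TTGGCGC or TTCGCGC or TTGCCGC. The CHR-type strings, which resemble sites of the DREAM subunit LIN-54, were TTTGAA or TTCGAA. The GATA string was TGATAA, a site of intestinal GATA factors. The lin-45 summit had TTCGCGC, which starts 33 bp toward higher coordinates from it. An E2F-type string was thus present at 1 of 4 member summits, against 15.7% of all 3726 IDR summits. CHR-type strings were present at 0 of 4, against 28.5%, and TGATAA at 0 of 4, against 5.56%. The best pooled peaks of the other 6 genes held none of these strings within 50 bp of their summits.

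**Figure D1:**
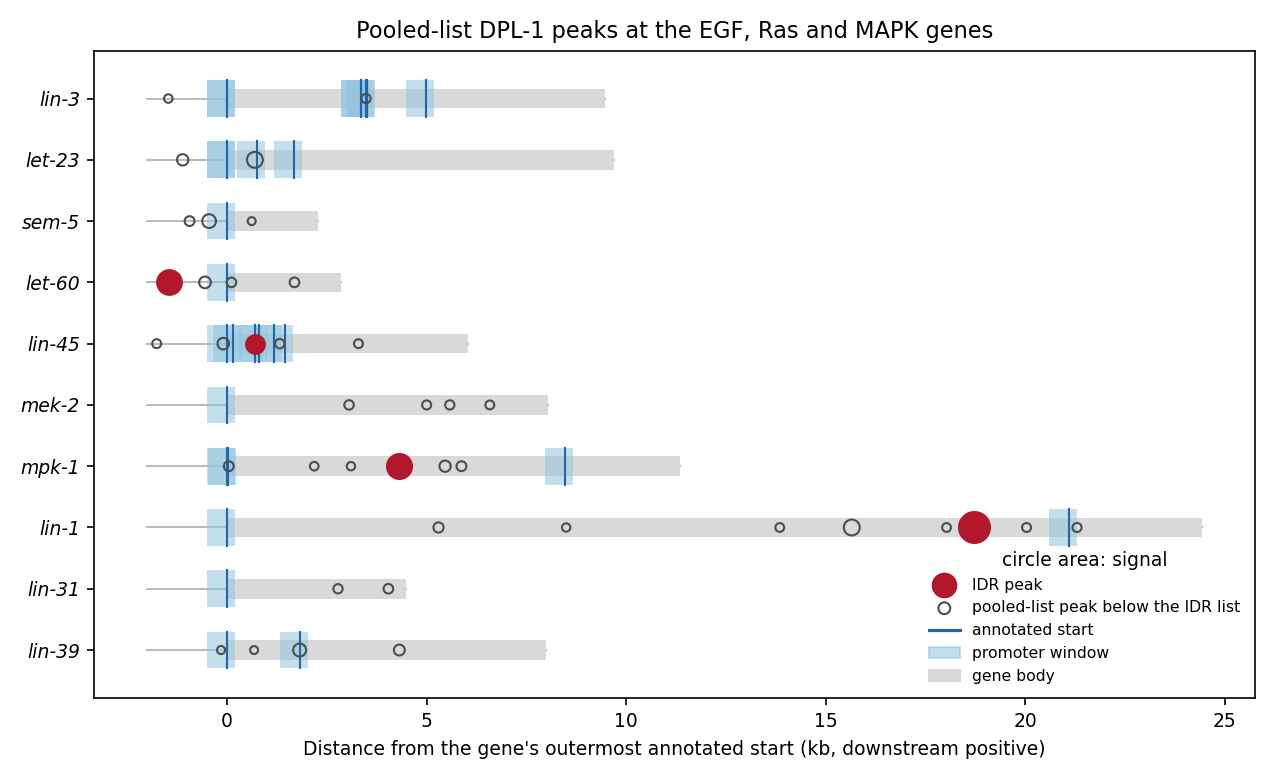
Each row is a gene, with the distance from its outermost annotated start in kb on the x axis. Grey bars are gene bodies, blue lines annotated starts, blue boxes promoter windows, and circles are pooled-list peaks with area proportional to signal. The 4 filled circles are the IDR peaks at let-60, lin-45, mpk-1 and lin-1, of which the lin-45 peak alone lies in a promoter window.

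The ligand and receptor genes had no IDR peak. At lin-3, the EGF-like ligand (WBGene00002992, IV:11054308-11063768, plus strand, 7 annotated starts), the pooled list held 2 peaks, both weak. The stronger had rank 16621 and a signal of 12.5, at IV:11057630-11057949, with its summit 3 bp past an internal start and in a 5′ UTR exon. It matched a peak of signal 7.70 (rank 27222) in replicate 1 and no peak of replicate 2 within 100 bp. The other, 1471 bp upstream of the outermost start, had a pooled rank of 23122 and was matched in replicate 2 alone, at signal 5.81 and rank 6298. Neither pooled peak of lin-3 was thus matched in both replicates. Over all protein-coding genes, 51.8% had a stronger best peak than lin-3. The IDR summit nearest to the outermost start of lin-3 was 4782 bp past the end of the gene and 1524 bp upstream of ttr-17.

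At let-23, the EGF receptor (WBGene00002299, II:9197512-9207213, plus strand, 4 starts), the best pooled peak just missed the IDR list. It had rank 4012 and a signal of 36.1, at II:9198050-9198369, where the last IDR peak had 39.5. Its summit lay in intron 2 of the longest transcript, 47 bp upstream of an internal start. Replicate 1 had 26.9 there (rank 4545) and replicate 2 had 8.29 (rank 3349). It therefore stood higher in the order of replicate 2 than in that of replicate 1, and let-23 was called when the 3726 strongest peaks of replicate 2 were used alone. A second pooled peak, 1111 bp upstream, had a signal of 18.6 (13.3 in replicate 1 and 2.30 in replicate 2).

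At sem-5, which codes for the Grb2-type adaptor (WBGene00004774, X:7959453-7961723, minus strand, 1 start), there were 3 pooled peaks. The best had rank 5154 and a signal of 27.1, at X:7962012-7962331, 449 bp upstream of the start and within the promoter window. Replicate 1 had 29.1 there (rank 4234), and replicate 2 had no summit within 100 bp. None of the 3 sem-5 peaks was matched in both replicates.

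Among the Ras gene and the kinase genes after it, let-60, lin-45 and mpk-1 had IDR peaks and mek-2 did not. At let-60, the Ras gene (WBGene00002335, IV:11688227-11691088, minus strand, 1 start), the IDR peak had rank 1968 and a signal of 87.8, at IV:11692381-11692700. Replicate 1 had 66.9 there (rank 2177) and replicate 2 had 23.1 (rank 1305), with summits 0 and 38 bp from the pooled one. This was among the peaks relatively strongest in replicate 2: the ratio of replicate 1 to replicate 2 was 2.90, and 5.82% of IDR peaks matched in both replicates had a lower one. The summit lay 1453 bp upstream of let-60 and nearer to another start, that of ZK792.12, at 1252 bp upstream. It fell inside ZK792.10, an annotated noncoding RNA gene (IV, plus strand) of the class ncRNA. Of all IDR summits, 5.42% fell inside a gene of that class and 7.86% inside any annotated gene that does not code for protein. Closer to let-60 the peaks were weak. A pooled peak 552 bp upstream of the start, just outside the promoter window, had a signal of 19.8 (17.2 in replicate 1 and 6.00 in replicate 2), and the one in the promoter window had 13.3 (9.66 in replicate 1, no match in replicate 2).

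At lin-45, the Raf gene (WBGene00003030, IV:6742537-6748572, minus strand, 6 starts), the IDR peak was the weakest of the 4. It had rank 3066 and a signal of 50.5, at IV:6747706-6748025. Replicate 1 had 44.8 (rank 3027) and replicate 2 had 6.74 (rank 4734), a ratio of 6.65 against a median of 5.32 over matched IDR peaks. The summit was 17 bp past the internal start of transcript Y73B6A.5d.1, in its 5′ UTR exon, and 706 bp past the outermost start of the gene. The outermost start had its own pooled peak 94 bp upstream, with a signal of 19.4 (15.5 in replicate 1, no match in replicate 2). Among the 5 pooled peaks of lin-45, 3 lay in promoter windows, and the IDR peak was the one matched in both replicates.

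At mek-2, the MAPK kinase gene (WBGene00003186, I:3005403-3013448, minus strand, 1 start), no pooled peak lay in the promoter window. The best of its 4 pooled peaks had rank 15687 and a signal of 12.9, in intron 3, and no match in either replicate. Its summit lay in the promoter window of the collagen gene col-48, 293 bp upstream of a col-48 start. The mek-2 peak matched in both replicates was one in an exon, with rank 16765 and a signal of 12.4 (7.43 in replicate 1 and 2.59 in replicate 2). An IDR peak of rank 3058 (signal 50.7, I:3015372-3015691) had its summit 2084 bp upstream of mek-2, which is 84 bp beyond the reach of the rule, and 210 bp upstream of nobh-1. Replicate 2 had 13.2 there, and replicate 1 had no summit within 100 bp. Among the 10 genes, the let-60 peak at 1453 bp was the farthest upstream that was counted, and of genes without a counted peak mek-2 alone had one within 5 kb upstream.

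At mpk-1, the ERK-type MAP kinase gene (WBGene00003401, III:4216763-4228108, minus strand, 3 starts), the IDR peak was strong in replicate 1 and weak in replicate 2. It had rank 1929 and a signal of 89.9, at III:4223642-4223961. Replicate 1 had 87.9 (rank 1737), and replicate 2 had 3.05 (rank 20635), below the median of 3.73 over all 30000 peaks of replicate 2. The ratio was 28.8, where the 10th to 90th percentile over matched IDR peaks ran from 3.30 to 10.7, and 7 of 3231 such peaks (0.217%) had a higher ratio. The summit lay in intron 1 of the long transcript, which spans 8247 bp, 4306 bp past the outermost start and 4159 bp upstream of the internal start of the short transcript. This intron held 5 of the 6 pooled peaks of mpk-1. The other was at the outermost start, with a signal of 13.97 (8.78 in replicate 1, no match in replicate 2).

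**Figure D2:**
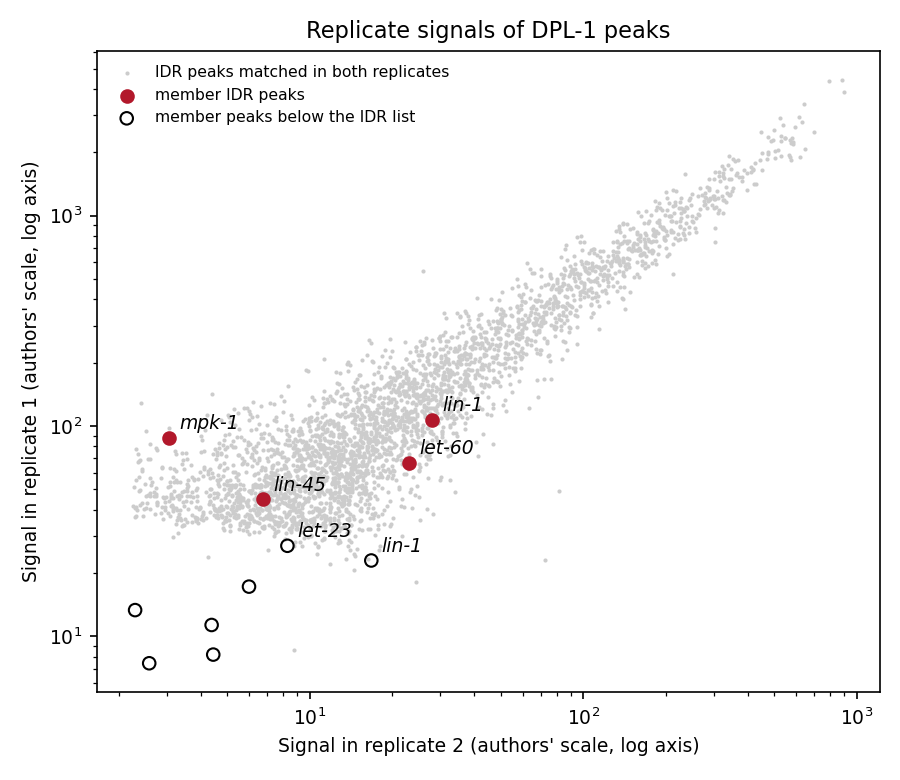
Signal in replicate 1 (y axis) against signal in replicate 2 (x axis), both on the authors' scale and log axes. Grey points are the 3231 IDR peaks matched in both replicates, filled circles the 4 member IDR peaks and open circles the 7 member peaks below the IDR list matched in both. The mpk-1 peak stands at the upper left, with 87.9 in replicate 1 and 3.05 in replicate 2, and the open lin-1 peak at the lower right of the members, with 22.9 and 16.8.

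Of the transcription factor genes, lin-1 had the strongest peak of the pathway, and lin-31 and lin-39 had no IDR peak. At lin-1, which codes for an ETS-type factor that MPK-1 phosphorylates (WBGene00002990, IV:2275861-2300286, minus strand, 2 starts), the IDR peak had rank 1381 and a signal of 138, at IV:2281410-2281729. Replicate 1 had 107 (rank 1488) and replicate 2 had 27.9 (rank 1124), so it was high in both. The summit lay in intron 2, which spans 20948 bp, 2389 bp upstream of the start of the short transcript and 18716 bp past the outermost start. The same intron held 7 of the 8 pooled peaks of the gene. A second peak there, 5453 bp upstream of the short transcript, had a pooled rank of 3958 and a signal of 36.6, just below the IDR list. It had 22.9 in replicate 1 (rank 5235) and 16.8 in replicate 2 (rank 1649). Its ratio of 1.36 was lower than in all but 0.155% of matched IDR peaks, but the peak is itself below that list. Its ratio was not ranked among peaks below the IDR list. The other member peaks below the list that were matched in both replicates had ratios from 1.84 to 5.78. The promoter window of the short transcript had a pooled peak of signal 11.9 (8.17 in replicate 1 and 4.44 in replicate 2), and that of the long transcript had none.

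At lin-31, which codes for a forkhead factor (WBGene00003017, II:3982549-3987029, plus strand, 1 start), the pooled list had 2 peaks and none in the promoter window. The stronger had rank 14693 and a signal of 13.3, in a 3′ UTR exon, and was matched in replicate 2 alone at signal 3.42. The IDR summit nearest to the start of lin-31 lay 23657 bp upstream of it. At lin-39, the Hox gene that keeps vulval precursor cells competent (WBGene00003024, III:7528641-7536632, minus strand, 2 starts), the best of 4 pooled peaks had rank 5779 and a signal of 24.1, at III:7534653-7534972. Its summit lay 8 bp upstream of the internal start. Replicate 1 had 19.98 there (rank 6017), and replicate 2 had no match. The lin-39 peak matched in both replicates was a weaker one in intron 3, with a signal of 17.1 (11.3 in replicate 1 and 4.38 in replicate 2).

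In promoter windows, the best pooled peak was below the IDR list at 7 of the 8 members that had one. For these 8 members, 12.8 to 29.5% of all protein-coding genes had a stronger best promoter peak, where genes without any count as weaker. The pooled list put 40 peaks in the search windows, of which 22 lay in introns, 9 in exons and 9 upstream. Every member had at least 1 pooled peak, against 69.9% of all genes, and 8 of 10 had one in a promoter window, against 37.6%. The pooled list has no threshold and includes background. The members have 28 annotated starts between them and long search windows. The part of all these in the shares was not tested. The deposited -log10 q, lower where a peak is less significant, was 0.0934 at the best lin-3 peak, 0.106 at mek-2 and 0.121 at lin-31. It was 2.47 at let-23, 1.41 at sem-5 and 1.07 at lin-39, and 3.09 or 3.64 at the 4 IDR peaks. Per length, the member windows held 0.375 pooled peaks per kb, against 0.325 over the windows of all genes. The 36 peaks below the IDR list had signals from 9.16 to 36.6, and 7 of them were matched in both replicates, while 15.3% of all pooled peaks below the IDR list were. All 4 IDR peaks were matched in both replicates within 100 bp, as were 86.7% of all IDR peaks, a list that was itself made from these replicates. When each replicate was limited to its own 3726 strongest peaks, the let-60 and lin-1 peaks were still matched in both, and the lin-45 and mpk-1 peaks were not. In replicate 2 alone, limited in this way, 3 members were called (let-23, let-60 and lin-1), and in replicate 1 alone the 4 members were those of the IDR list.

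**Figure D3:**
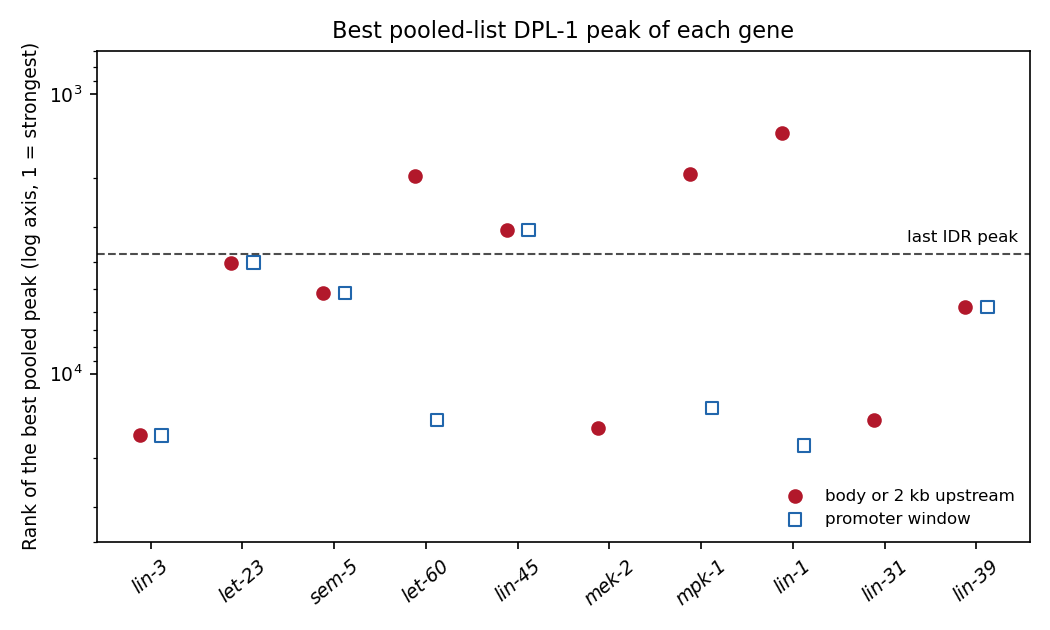
Rank of the strongest pooled-list peak of each gene on a log axis, with rank 1 at the top, in the search window (filled circles) and in the promoter window (open squares, absent where there was none). The dashed line is the last IDR peak at rank 3726. Promoter ranks fall between 3066 at lin-45 and 18090 at lin-1, and lin-45 alone is above the line.

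The order of the best signals was lin-1 (138), mpk-1 (89.9), let-60 (87.8), lin-45 (50.5), let-23 (36.1), sem-5 (27.1), lin-39 (24.1), lin-31 (13.3), mek-2 (12.9) and lin-3 (12.5). Several members stood elsewhere in the replicates' own lists. The best mpk-1 peak in replicate 2 had rank 16944, against a pooled rank of 1929. The best lin-3 peak in replicate 2 had rank 6298, against 16621 in the pooled list, and that of lin-31 in replicate 1 had rank 24274, against 14693. The median signal of the 4 IDR peaks was 88.8, against 139 for the best IDR peak of all genes called by the same rule. These sets differ in promoter content. Over the IDR list, peaks in promoter windows had a median signal of 136 and the others had 67.8. The member IDR peaks outside promoter windows, those of lin-1, mpk-1 and let-60, were all above 67.8. For scale, the DREAM genes dpl-1, efl-1 and lin-35 had promoter peaks of signal 340, 3429 and 772.

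Promoter peaks were also listed at genes that modulate the pathway. Of 28 regulators of EGF, Ras and MAPK signalling found in the annotation (29 were listed and rasa-1 was not matched), 11 (39.3%) had an IDR summit in the body or within 2 kb upstream, against 22.7% of all protein-coding genes, and 8 (28.6%) had one in a promoter window, against 14.3%. The median search window of the regulators was 9728 bp, against 4027 bp over all protein-coding genes. Of genes with windows within 20% of the core genes' median length, 33.3% were called in the body or within 2 kb upstream. The promoter share was not set against genes of like length. The regulators were not tested against the 10 core genes, whose promoter count was near the share over all genes. The median signal of the 8 promoter peaks was 109, against 154 over all genes with one. The strongest was at lin-7, a PDZ protein that places the LET-23 receptor in the membrane, with a signal of 631 (539 in replicate 1 and 91.5 in replicate 2). That summit also lay in the promoter windows of elof-1 and Y54G11A.17. Next were cnk-1, a scaffold protein of Raf signalling, with 178 (143 in replicate 1 and 35.4 in replicate 2), and sur-2, a Mediator subunit, with 130 (109 in replicate 1 and 16.6 in replicate 2). The Ras GTPase-activating protein gene gap-3 had 127 (104 in replicate 1 and 20.02 in replicate 2). These 4 peaks were matched in both replicates. Among the other 4, those of ksr-2 (52.1 in replicate 1) and eor-2 (78.9 in replicate 1) had no match in replicate 2, and those of ptp-2 and eor-1 were matched in both. The last 4 genes are named after their values were seen.

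Of 30 Wnt, Notch and fate genes of vulval development, 8 (26.7%) had an IDR summit in the body or within 2 kb upstream and 4 (13.3%) in a promoter window, near the shares over all genes. The 4 were pop-1, the TCF factor of Wnt signalling, with a signal of 288 (241 in replicate 1 and 42.8 in replicate 2), egl-17, an FGF-type ligand, with 60.0 (49.4 in replicate 1 and 10.2 in replicate 2), sup-17, a metalloprotease of the Notch pathway, with 50.8, and pry-1, an Axin-type protein, with 41.8. In promoter windows, the core genes' best pooled peaks had signals from 11.9 at lin-1 to 50.5 at lin-45. The signals of pop-1, egl-17 and sup-17 were above that range, sup-17 by little, and that of pry-1 was inside it. The 4 genes are listed because they have an IDR promoter peak, whereas lin-45 alone of the core genes has one.

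**Figure D4:**
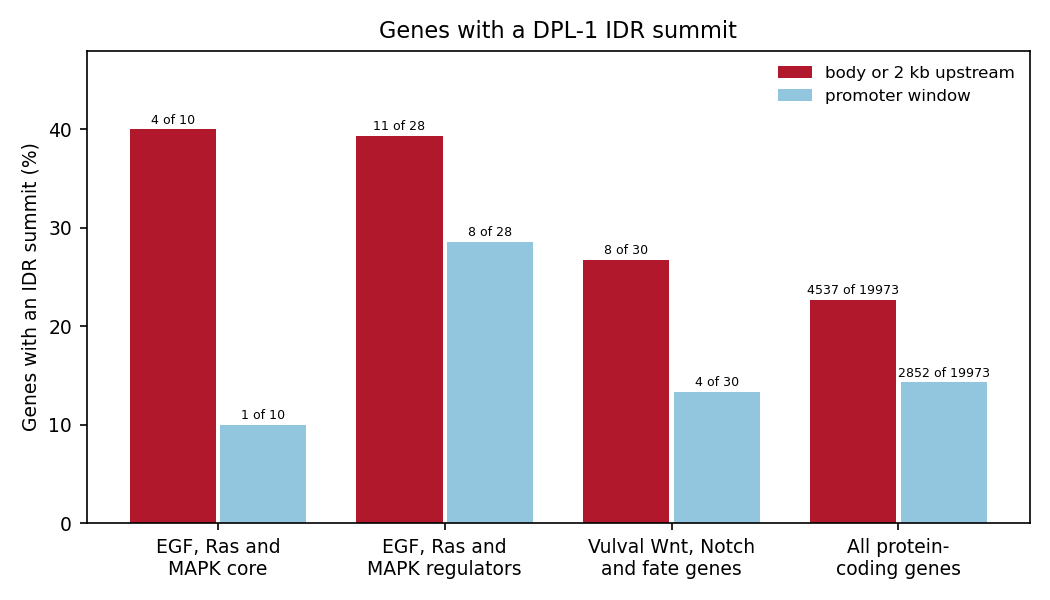
Bars give the percent of genes with an IDR summit, in the gene body or within 2 kb upstream (dark) and in a promoter window (light), with the counts above them. The 10 core genes stand at 40 and 10%, the regulators at 39.3 and 28.6%, the Wnt, Notch and fate genes at 26.7 and 13.3%, and all protein-coding genes at 22.7 and 14.3%.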

How the data were processed

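DPL-1 ChIP-seq peak lists of 2 biological replicates, grouped and numbered by their labels, were used on build ce11. Per the deposited file descriptions, a list was made for each replicate from its own alignment with a control, another from the pooled alignments, and the IDR list was derived from all 3. Tool names and versions are not given in the sources used here. Signal per peak, as deposited by the authors, is on an unstated scale. The -log10 q deposited by the authors reached its maximum of 3.64 at many peaks and was not used for ranking. Lists on ce10, controls and signal tracks were not analysed here.

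Genes and starts (29314 over 19973 genes) came from the Ensembl annotation of WBcel235, whose chromosome lengths cover all peak coordinates. A peak of one list had a match in another where a summit lay at most 100 bp away, and the strongest such peak was taken. Gene positions and peaks are given from 1, and distances are signed along the gene. Counts describe these lists, and no test was made, since there is 1 group and the members were chosen by name. Members, pathway lists and strings were chosen with earlier results of these data known. Named genes were all members, genes whose promoters or nearest starts share a member's peak, the 4 strongest promoter peaks of each pathway list, and dpl-1, efl-1 and lin-35. Counting and matching were tested on simulated peaks. Python 3.11.15, numpy 2.4.6, pandas 2.3.3 and matplotlib 3.10.9 were used.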

Additional observations from a re-analysis of the deposited data

How the results depend on the processing

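The count of members with an IDR summit in the body or within 2 kb upstream was 4 of 10. With either replicate left out, the 3726 strongest peaks of the other replaced the IDR list, and the count was 3 or 4. It fell to 1 (lin-1) with the stronger 1863 IDR peaks, where 14.2% of all genes were called. It was 5 with any overlap of peak intervals or with a reach of 5 kb, both of which added mek-2. It was 3 with a reach of 1 kb or when the nearest start had to be the member's own, both of which dropped let-60. The promoter count was 1 under 5 of 6 alternatives. It was let-23 in place of lin-45 without replicate 1, from the strongest peaks of replicate 2. The promoter count was 0 with the stronger 1863 IDR peaks (9.36% of all genes). The 4 IDR peaks stayed matched in both replicates within 50 or 250 bp or by overlap, and 2 were matched among the 3726 strongest of each replicate. The median best rank over the members was 4583, and it ran from 4389.5 to 6152.5 when a replicate was left out. The share of all genes called in the body or within 2 kb upstream was 24.3% on autosomes, and the background within 20% of the members' median length was chosen after seeing the data. No paired analysis was possible because there is 1 group. Causes were not tested. Signal in replicate 1 was 5.32 times that in replicate 2 at the median matched IDR peak.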
